A study of Mus musculus with 12 samples.

Results

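The question here is whether the ATF7 genotype label went with a different difference in expression when adipocytes had been made with rosiglitazone than when they had been made without it. For each gene the difference between KO-labelled and WT libraries in beige cultures, minus the same difference in white cultures, was estimated on log2(FPKM + 1). This value is called the interaction. It is negative where the KO-labelled libraries stood lower relative to WT in beige than in white cultures. It was estimated in 8 of the 12 libraries of the series, for 11063 of the 24888 gene entries, those with at least 1 FPKM in 2 or more of the 8 libraries and above 0 in all 8. FPKM counts sequenced fragments relative to the length of the transcript and the size of the library.

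The 8 libraries came from cultures of preadipocytes of inguinal white adipose tissue of C57BL/6 mice, differentiated in culture. The groups were ATF7KO-beige and WT-beige, both with rosiglitazone, and ATF7KO-white and WT-white, both without it, with 2 libraries each. Beige and white libraries therefore differ by rosiglitazone, and KO-labelled and WT libraries by the genotype label. The labels do not say which part of Atf7 was removed, how many animals gave cells, or whether the 2 libraries of a group came from separate cultures, so the p-values measure only the spread between these libraries. Total RNA was depleted of ribosomal RNA and sequenced.

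ATF7 is a DNA-binding protein of the ATF2 family that sits on promoters and, in mouse macrophages, is known to keep genes silent by recruiting enzymes that methylate histone H3 on lysine 9. Rosiglitazone is a ligand of the nuclear receptor PPARγ, the main regulator of fat cell formation. In cultures of inguinal preadipocytes it deepens adipocyte differentiation and turns on mitochondrial and thermogenic genes, which gives the cells a beige character.

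The 8 libraries summed to 225536 to 266825 FPKM, 9892 to 10877 entries per library reached 1 FPKM, and replicates of a group correlated across entries at a Pearson's r of 0.987 to 0.994. Entries named as small RNA genes took 21.8% to 27.5% of the FPKM, with all 4 beige libraries below all 4 white ones. The Atf7 entry was at 7.26 and 7.94 FPKM in KO-labelled beige and 7.80 and 7.83 FPKM in WT beige libraries, and at 6.88 and 7.73 FPKM in KO-labelled white and 9.10 and 7.10 FPKM in WT white libraries. The genotypes overlapped, and its interaction was 0.09 (SE 0.17, adjusted p = 0.827, limma), so every direction below rests on the genotype labels. Adipocyte markers were high in every library. Adipoq, which encodes adiponectin, lay at 424 and 468 FPKM in KO-labelled beige and 518 and 506 in WT beige, and at 274 and 281 in KO-labelled white and 326 and 353 in WT white libraries. The defining markers of T cells (Cd3e), basal keratinocytes (Krt14) and muscle precursors (Myod1) were listed at 0 in all 8 libraries. Other members of the marker lists were present. Of 18 endothelial markers, 12 stayed below 1 FPKM in all 8 libraries, Pecam1 and Cdh5 among them. Eng was the highest member, and Ramp2 reached 4.85 FPKM. The list summed to 6.98 to 7.64 FPKM in beige and 18.1 to 21.3 FPKM in white libraries. Of 15 epithelial and mesothelial markers with an entry, 13 stayed below 1 FPKM, while Sbsn lay at 6.82 to 26.2 FPKM and Krt19 at 1.36 to 10.5, and the list summed to 15.0 to 36.1 FPKM in beige and 9.13 to 17.9 FPKM in white libraries. Of 20 Schwann cell and skeletal muscle markers, 15 stayed below 1 FPKM, while Acta1 reached 3.19 FPKM and Pmp22, which stromal cells also express, 84.5. Macrophage markers were present, mostly in white cultures, and are given with the results they move with.

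Few entries passed the test for the interaction, and those that passed were negative, which did not hold under every other way of fitting. With limma on the 8 libraries and Benjamini-Hochberg adjustment over all entries, 12 of 11063 entries passed at an adjusted p under 0.05, which is 0.108%. They were Lars2, Txnip, Acly, Hist1h3h, Hist1h3i, Rcan2, Cenpa, Ccnd1, Adam8, Coro1a, Scara5 and Slc40a1. None passed with a positive interaction (0 entries, 0.0%). At an unadjusted p under 0.05 there were 1916 entries (17.3%), of which 1009 were lower (9.12%) and 907 higher (8.2%). The absence of positive calls at the adjusted threshold therefore sits beside nearly as many positive as negative entries at the unadjusted one. The median interaction over all entries was 0.01, and 5% of entries lay below −0.51 and 5% above 0.49. The smallest called interaction was 0.95 in size. Of the 12, 10 shared an adjusted p of 0.0463, close under the threshold, and 13 further entries, 5 of them positive, lay between 0.05 and 0.1. Positive calls did appear in other fits, at 12 of 33 calls with zeros kept, 8 of 24 with no filter on low values, 3 of 19 after quantile normalization and 47 of 127 with all 12 libraries in 1 fit.

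In the 12 called genes the KO-labelled libraries were above WT in white cultures and mostly below WT in beige cultures. In the 12, both KO-labelled white libraries stood above both WT white libraries, and 11 of the 12 passed the test of that difference alone, against 308 of 11063 entries (2.78%) overall. Of those 308 calls, made with the deposited scaling, 66.9% were higher in KO-labelled libraries. Quantile normalization gave its own set of 506 calls, of which 52.2% were higher. In beige cultures the KO-labelled mean was below WT in 11 of the 12, without overlap of the libraries in 9, and 1 of the 12 (Lars2) passed on its own, against 10 of 11063 (0.0904%) overall. These counts share libraries with the interaction itself and describe its shape. The share of all entries without overlap is not given here, so the counts without overlap have no background to be set against.

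**Figure D1:**
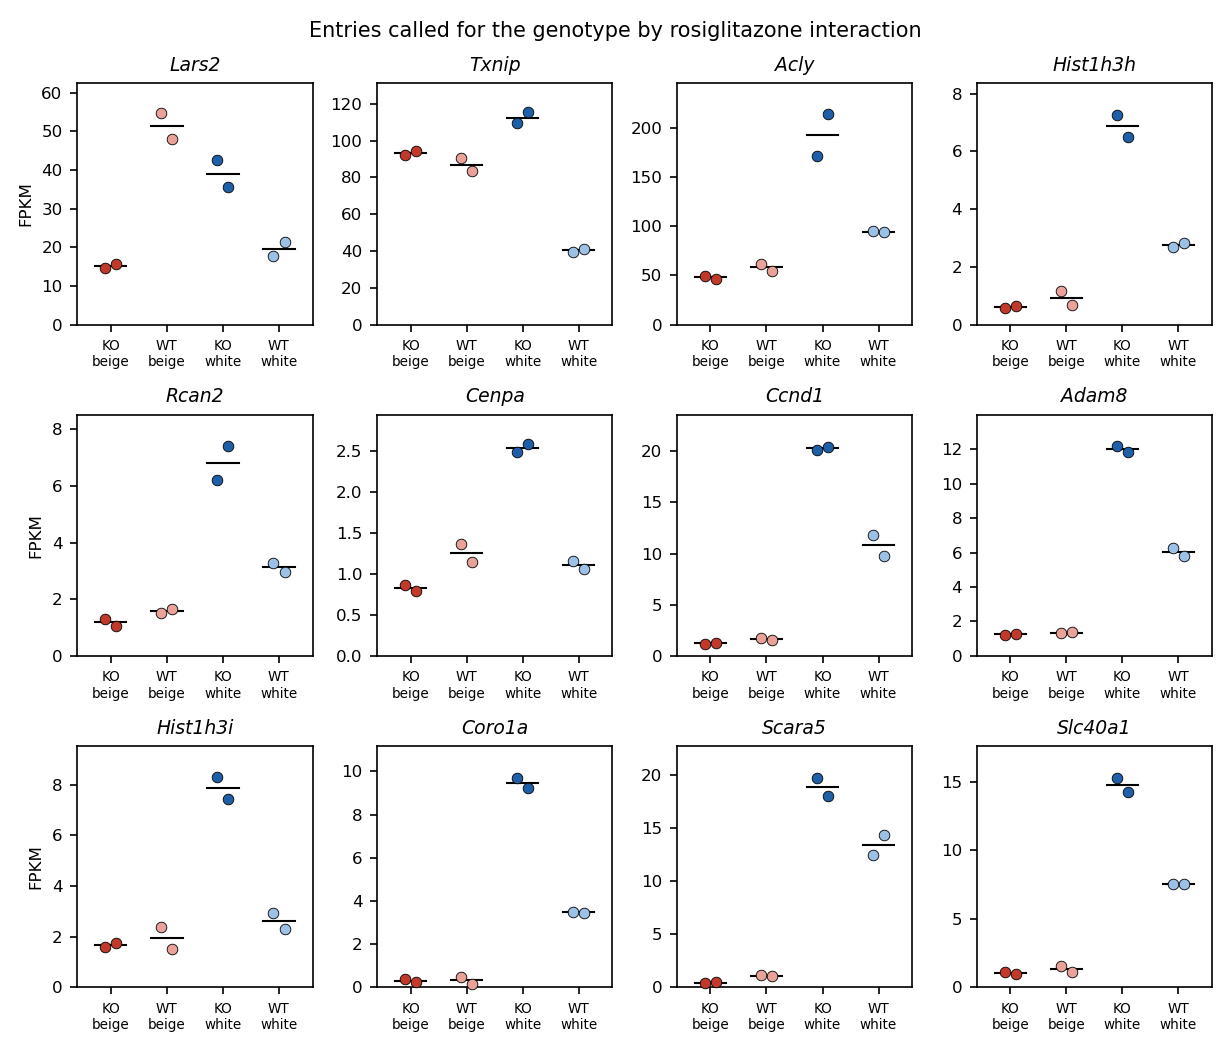
FPKM of the 12 called entries in each of the 8 libraries, with 1 panel per entry, a linear vertical axis from 0 in FPKM, and the 4 groups from left to right as ATF7KO-beige, WT-beige, ATF7KO-white and WT-white, where KO means labelled ATF7KO. Points are libraries and black lines are group means. In every panel both KO-labelled white points lie above both WT white points.

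Lars2 encodes the mitochondrial leucyl-tRNA synthetase, which loads leucine onto its tRNA for protein synthesis inside mitochondria, and its locus lies on chromosome 9 at 123366940 to 123462664 (mm10). It was at 14.5 and 15.6 FPKM in KO-labelled beige and 54.7 and 48.0 FPKM in WT beige libraries, and at 42.6 and 35.5 FPKM in KO-labelled white and 17.8 and 21.4 FPKM in WT white libraries. The order of the genotypes was opposite in the 2 kinds of culture, with no overlap in either. In beige cultures the KO-labelled libraries fell by 1.70 on the log2(FPKM + 1) scale (SE 0.13, adjusted p = 0.00112), and in white cultures they rose by 0.96 (SE 0.13, adjusted p = 0.00911). The interaction was −2.66 (SE 0.18, adjusted p = 0.000423), the most negative of all 11063, and it passed in each of the 8 fits that left out 1 library. The entry for the 45S ribosomal RNA precursor, Rn45s, which depletion of ribosomal RNA leaves in part, was at 4133 and 4674 FPKM in KO-labelled beige and 5222 and 4962 FPKM in WT beige libraries, and at 6555 and 6505 FPKM in KO-labelled white and 5239 and 6619 FPKM in WT white libraries. Its interaction was −0.36 (SE 0.27, adjusted p = 0.504), and its part in the Lars2 result was not tested.

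Txnip and Acly, both known in liver and fat to respond to carbohydrate supply, are described together with relatives that were grouped after their values were seen. Txnip encodes a thioredoxin-binding arrestin that is induced by glucose and lowers glucose uptake, and its locus lies on chromosome 3 at 96557957 to 96561857. Txnip was at 92.3 and 94.5 FPKM in KO-labelled beige and 90.7 and 83.2 FPKM in WT beige libraries, and at 109 and 115 FPKM in KO-labelled white and 39.5 and 41.2 FPKM in WT white libraries. The genotypes were close in beige cultures and far apart in white cultures, where the KO-labelled level was nearer to that of beige cultures than to that of WT white cultures. The difference between KO-labelled and WT was 0.10 in beige (SE 0.10) and 1.45 in white (SE 0.10), and the interaction was −1.35 (SE 0.15, adjusted p = 0.0145). It passed in 4 of the 8 fits with 1 library left out.

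Acly encodes ATP citrate lyase, which makes cytosolic acetyl-CoA for fatty acid synthesis (chromosome 11, 100476352 to 100528000). It was at 49.1 and 46.8 FPKM in KO-labelled beige and 61.9 and 54.2 FPKM in WT beige libraries, and at 171 and 214 FPKM in KO-labelled white and 95.4 and 93.5 FPKM in WT white libraries. The KO-labelled white libraries were the highest of the 8, while in beige cultures KO-labelled lay below WT without overlap. The interaction was −1.28 (SE 0.18, adjusted p = 0.0463).

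Of 30 lipogenesis genes tested, 21 lay below 0 and 9 above, 1 passed (Acly), and the median interaction was −0.15. Counted at an unadjusted p under 0.05, 8 were lower (26.7%) and 0 higher, against 9.12% and 8.2% of all entries. Thrsp, the lipogenic regulator also called Spot 14, was at 58.4 and 59.4 FPKM in KO-labelled beige and 69.0 and 56.8 FPKM in WT beige libraries, and at 107 and 111 FPKM in KO-labelled white and 35.4 and 49.7 FPKM in WT white libraries. The beige groups overlapped and the white groups did not, and the interaction was −1.44 (SE 0.22, adjusted p = 0.0501). Arrdc4, an arrestin-domain relative of Txnip that was singled out after its values were seen, was at 1.11 and 1.86 FPKM in KO-labelled beige and 1.95 and 1.51 FPKM in WT beige libraries, and at 5.59 and 5.42 FPKM in KO-labelled white and 1.77 and 2.29 FPKM in WT white libraries, with an interaction of −1.25 (SE 0.22, adjusted p = 0.0877). Fasn, fatty acid synthase, was at 103 and 99.3 FPKM in KO-labelled beige and 155 and 135 FPKM in WT beige libraries, and at 413 and 423 FPKM in KO-labelled white and 304 and 336 FPKM in WT white libraries, with an interaction of −0.90 (adjusted p = 0.104). In Fasn the genotypes did not overlap in either kind of culture and were in opposite order. Acaca, acetyl-CoA carboxylase, had −0.74 and Tkt, transketolase, −0.74 (adjusted p = 0.104 and 0.112). Mlxipl, which encodes ChREBP, the transcription factor that answers to glucose metabolites, lay between 4.28 and 5.67 FPKM in all 8 libraries, with an interaction of −0.16 (SE 0.16). Scd1, the stearoyl-CoA desaturase, had an interaction of the other sign, 0.09 (SE 0.25, adjusted p = 0.88), which turned to −0.07 after quantile normalization.

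The start regions of Txnip and Arrdc4 are shown because these relatives were both high in KO-labelled white libraries and both are known targets of glucose-sensing factors that bind E-boxes. They are RefSeq promoter windows on GRCm38.p6, 250 bases before to 50 after the start, written 5′ to 3′ on the gene's strand, for Txnip chr3:96557707-96558006 on the plus strand and for Arrdc4 chr7:68749189-68749488 on the minus strand. Capitals mark a carbohydrate response element in Txnip and an E-box in Arrdc4.
Txnip: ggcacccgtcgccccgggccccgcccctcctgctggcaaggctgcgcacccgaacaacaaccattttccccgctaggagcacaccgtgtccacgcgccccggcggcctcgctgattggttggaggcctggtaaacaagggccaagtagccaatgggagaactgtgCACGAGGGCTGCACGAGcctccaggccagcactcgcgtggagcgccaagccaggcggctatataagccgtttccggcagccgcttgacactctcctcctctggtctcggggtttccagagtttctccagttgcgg
Arrdc4: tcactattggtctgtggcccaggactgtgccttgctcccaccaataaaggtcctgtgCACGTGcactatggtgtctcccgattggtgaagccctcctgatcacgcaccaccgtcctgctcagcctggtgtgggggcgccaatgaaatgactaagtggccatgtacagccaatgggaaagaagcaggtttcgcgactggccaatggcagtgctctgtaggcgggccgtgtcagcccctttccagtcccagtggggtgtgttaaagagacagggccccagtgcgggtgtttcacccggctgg
The element searched as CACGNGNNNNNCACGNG on both strands stood 85 to 69 bases before the Txnip start. It occurred in 16 of 32851 promoter windows (0.0487%) and in 9 of the 10775 windows of genes tested. The E-box CACGTG, which can also form either arm of that element, stood 193 to 188 bases before the Arrdc4 start. This E-box occurred in 7.15% of all windows and in 10.3% of the windows of genes tested. Of the 12 called genes, 7 had an entry, with 10 windows, and Txnip was the 1 gene among them with the longer element. The ATF element TGACGTCA occurred in 0 of these 10 windows, in 1.79% of all windows and in 3.11% of the windows of genes tested. A match describes letters only.

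A pair of histone H3 genes, Cenpa and Ccnd1 are described together, a grouping made after the calls were known. Hist1h3h and Hist1h3i encode replication-dependent histone H3 (both on chromosome 13). Hist1h3h was at 0.59 and 0.63 FPKM in KO-labelled beige and 1.18 and 0.67 FPKM in WT beige libraries, and at 7.26 and 6.49 FPKM in KO-labelled white and 2.68 and 2.82 FPKM in WT white libraries, and its interaction was −1.31 (SE 0.19). Hist1h3i was at 1.59 and 1.75 FPKM in KO-labelled beige and 2.38 and 1.53 FPKM in WT beige libraries, and at 8.32 and 7.44 FPKM in KO-labelled white and 2.92 and 2.32 FPKM in WT white libraries, and its interaction was −1.43 (SE 0.21). Both were highest in KO-labelled white libraries. Their copies are nearly identical and may share reads, so the values of a single histone gene are uncertain.

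Cenpa, the histone H3 variant of centromeres, was at 0.87 and 0.79 FPKM in KO-labelled beige and 1.37 and 1.14 FPKM in WT beige libraries, and at 2.48 and 2.58 FPKM in KO-labelled white and 1.16 and 1.06 FPKM in WT white libraries. Its genotypes did not overlap and were in opposite order in the 2 kinds of culture, and the interaction was −1.04 (SE 0.15). Ccnd1, cyclin D1, which drives entry into the cell cycle, was at 1.17 and 1.29 FPKM in KO-labelled beige and 1.77 and 1.53 FPKM in WT beige libraries, and at 20.1 and 20.5 FPKM in KO-labelled white and 11.8 and 9.80 FPKM in WT white libraries. It was low in every beige library, and the interaction was −1.10 (SE 0.16). The 4 genes each had an adjusted p of 0.0463. Of 27 cell cycle and DNA replication genes tested, 1 passed (Ccnd1), 25 lay below 0, and the median interaction was −0.30. Counted at an unadjusted p under 0.05, 6 were lower (22.2%) and 0 higher, against 9.12% and 8.2% of all entries. Mki67, the proliferation marker Ki-67, was at 0.18 and 0.16 FPKM in KO-labelled beige and 0.25 and 0.16 in WT beige, and at 2.91 and 2.77 in KO-labelled white and 1.55 and 1.31 in WT white libraries (interaction −0.70, adjusted p = 0.114).

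The calls Coro1a, Adam8, Slc40a1 and Scara5 were likewise grouped after they were known. Coro1a, a leukocyte actin-binding protein, was at 0.36 and 0.23 FPKM in KO-labelled beige and 0.50 and 0.16 FPKM in WT beige libraries, and at 9.68 and 9.24 FPKM in KO-labelled white and 3.48 and 3.46 FPKM in WT white libraries, with an interaction of −1.25 (SE 0.19). Adam8, a membrane protease of leukocytes, was at 1.24 and 1.27 FPKM in KO-labelled beige and 1.30 and 1.38 FPKM in WT beige libraries, and at 12.2 and 11.8 FPKM in KO-labelled white and 6.26 and 5.78 FPKM in WT white libraries, with an interaction of −0.95 (SE 0.14). Both were near the bottom of the scale in all beige libraries and separated the genotypes in white ones. Slc40a1, the iron exporter ferroportin, abundant in macrophages, was at 1.09 and 0.94 FPKM in KO-labelled beige and 1.57 and 1.12 FPKM in WT beige libraries, and at 15.3 and 14.2 FPKM in KO-labelled white and 7.53 and 7.50 FPKM in WT white libraries, with an interaction of −1.10 (SE 0.16). Scara5, a scavenger receptor that takes up ferritin and is found on stromal cells, was at 0.36 and 0.47 FPKM in KO-labelled beige and 1.16 and 1.04 FPKM in WT beige libraries, and at 19.6 and 18.0 FPKM in KO-labelled white and 12.4 and 14.3 FPKM in WT white libraries, with an interaction of −1.04 (SE 0.16). Scara5 had the most negative beige difference of these 4 genes (−0.57, SE 0.11), and it was the 1 called gene whose white difference did not pass on its own (adjusted p = 0.0527). The adjusted p of all 4 interactions was 0.0463.

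Macrophage markers were also higher in white than in beige cultures and highest in the KO-labelled white libraries. The 36 macrophage markers with an entry, of 37 listed, summed to 85.7 and 69.1 FPKM in KO-labelled beige and 65.2 and 62.8 FPKM in WT beige libraries. Their sums were 1018 and 1073 FPKM in KO-labelled white and 766 and 674 FPKM in WT white libraries. Of these, 29 were tested. Their median difference between KO-labelled and WT was 0.11 in beige, with 23 of the 29 above 0, and 0.67 in white cultures, the median interaction was −0.48, and 2 of the 29 lay above 0. For the interaction, 0 passed, while 13 were lower and 1 higher at an unadjusted p under 0.05. These were 44.8% and 3.45% of the genes tested, against 9.12% and 8.2% of all entries. For the white difference alone, 13 passed, all higher, against 1.86% of all entries. Of the defining markers, Adgre1 (F4/80) was at 1.42 and 1.30 FPKM in KO-labelled beige and 1.39 and 1.01 FPKM in WT beige libraries, and at 29.2 and 30.7 FPKM in KO-labelled white and 21.4 and 18.4 FPKM in WT white libraries. Csf1r, the receptor for the macrophage growth factor, was at 0.82 and 0.63 FPKM in KO-labelled beige and 0.65 and 0.48 in WT beige, and at 19.9 and 21.4 in KO-labelled white and 13.5 and 11.1 in WT white libraries. Fcer1g, a signalling chain of Fc receptors, had the lowest p of the list, at 1.91 and 1.61 FPKM in KO-labelled beige and 1.74 and 1.90 FPKM in WT beige libraries, and at 37.3 and 37.0 FPKM in KO-labelled white and 23.2 and 20.3 FPKM in WT white libraries, with an interaction of −0.78 (adjusted p = 0.104). Cd68 was at 4.79 FPKM or more and C1qa at 0.91 or more in every library, so none of the 4 defining markers (Adgre1, Csf1r, Cd68 and C1qa) was at 0. Adgre1, Csf1r, C1qa and Fcer1g were low in beige libraries, where adding 1 before the log shrinks ratios. With 0.1 added instead, their interactions stayed below 0. They went from −0.46 to −0.41 for Adgre1, −0.57 to −0.43 for Csf1r, −0.77 to −0.66 for C1qa and −0.78 to −0.82 for Fcer1g. Their standard errors grew. Adjusted p-values (limma) rose, in that order, from 0.202 to 0.378, 0.168 to 0.414, 0.271 to 0.475 and 0.104 to 0.14. In bulk samples a change in the number of cells of a type and a change in RNA per cell cannot be told apart. The part of these markers in the calls was not tested. The median moved to −0.61 without WT white replicate 1 and to −0.31 without WT white replicate 2.

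Rcan2, an inhibitor of calcineurin whose locus lies on chromosome 17 at 43801851 to 44039516, was at 1.32 and 1.07 FPKM in KO-labelled beige and 1.51 and 1.64 FPKM in WT beige libraries, and at 6.22 and 7.42 FPKM in KO-labelled white and 3.28 and 2.97 FPKM in WT white libraries. Neither pair of groups overlapped, and the interaction was −1.15 (SE 0.17, adjusted p = 0.0463).

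In 9 of the 12 called genes every beige library was below 3 FPKM, where a pseudocount of 1 shrinks ratios. With 0.1 in its place all 12 interactions kept their sign and ran from −2.75 to −1.08, but 3 passed (Lars2, Txnip and Scara5), and adjusted p-values of the 12 went up to 0.21. The calls other than Lars2 also depended on single libraries. When ATF7KO-beige replicate 1 was left out all 12 passed among 137 calls, 63 of which were positive, and when WT-white replicate 1 was left out 8 of them passed among 33, 12 of which were positive. When WT-beige replicate 2 was left out 5 passed among 6, and when WT-white replicate 2 was left out 2 passed among 3. With no filter on low values, 2 of the 12 were among the 24 calls. In the other 4 fits with 1 library fewer (without WT-beige replicate 1, ATF7KO-beige replicate 2 or either ATF7KO-white library), Lars2 was the 1 entry that passed.

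**Figure D2:**
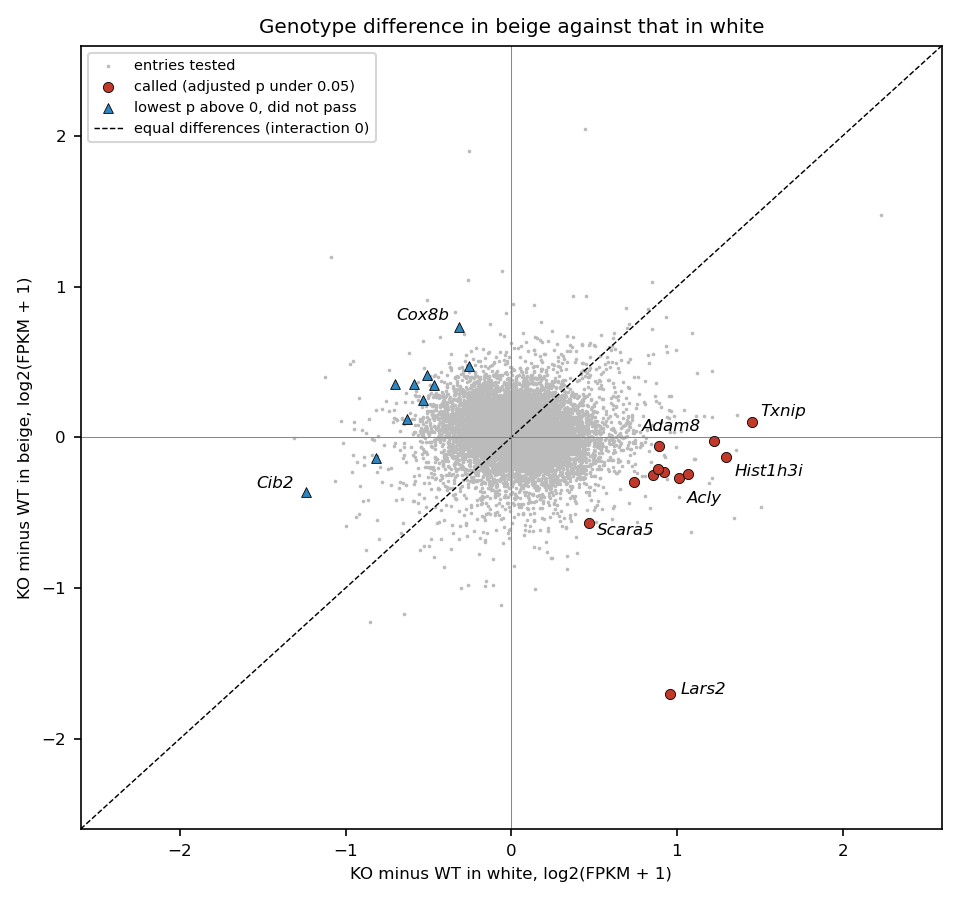
Each grey point is 1 of the 11063 entries, placed by the difference between KO-labelled and WT in white cultures (horizontal axis) and in beige cultures (vertical axis), both in log2(FPKM + 1). Red circles are the 12 called entries, all to the right of 0 and below the dashed line of equal differences. Blue triangles are the 10 genes of lowest p with a positive interaction, which did not pass. They were taken among entries averaging 1 or more on the log2 scale, without predicted genes, pseudogenes and small RNA genes.

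On the positive side, genes were ranked by p among entries averaging 1 or more on the log2 scale, without predicted genes, pseudogenes and small RNA genes. The 10 with the lowest p had adjusted p-values of 0.0532 to 0.104 (limma), so none passed. Cox8b, the cytochrome c oxidase subunit of brown fat and muscle (chromosome 7, 140898942 to 140900446), came closest of these 10. It was at 269.9 and 294 FPKM in KO-labelled beige and 156 and 183 FPKM in WT beige libraries, and at 21.7 and 23.7 FPKM in KO-labelled white and 27.9 and 29.1 FPKM in WT white libraries. KO-labelled libraries were above WT in beige and below WT in white cultures, with no overlap in either. The interaction was 1.05 (SE 0.16, adjusted p = 0.0532, 95% interval 0.69 to 1.41). It passed in 5 of 9 other fits of the 8 or 12 libraries, with adjusted p-values of 0.0311 to 0.0951 over the 9, and in 1 of the 8 fits with 1 library left out (0.0492 to 0.324). The called genes Acly and Ccnd1 also passed in 5 of those 9. Crls1, the synthase of cardiolipin, the phospholipid of the inner mitochondrial membrane, was at 40.3 and 44.1 FPKM in KO-labelled beige and 28.8 and 31.3 FPKM in WT beige libraries, and at 10.7 and 10.1 FPKM in KO-labelled white and 12.3 and 12.9 FPKM in WT white libraries, the same order as Cox8b, with an interaction of 0.73 (adjusted p = 0.104).

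Mme, the membrane peptidase neprilysin, was at 13.2 and 12.6 FPKM in KO-labelled beige and 9.82 and 9.08 FPKM in WT beige libraries, and at 2.68 and 2.96 FPKM in KO-labelled white and 4.09 and 4.80 FPKM in WT white libraries, with an interaction of 0.92 (adjusted p = 0.0696). It too was above WT in beige and below WT in white cultures. Rrp15 and Pno1, both factors of ribosome assembly, had interactions of 0.82 and 0.94, and Cacybp, a chaperone-like partner of ubiquitin ligases, 0.78. Trappc2, a subunit of a vesicle tethering complex, had 1.06. In Cib2, a calcium-binding protein, the KO-labelled libraries were below WT in both kinds of culture, at 31.0 and 34.8 FPKM in KO-labelled beige and 44.4 and 40.8 FPKM in WT beige libraries, and at 11.5 and 11.2 FPKM in KO-labelled white and 26.4 and 29.9 FPKM in WT white libraries. Its interaction of 0.87 (adjusted p = 0.0877) came from the wider gap in white cultures. Slc5a3, the inositol transporter, was at 16.6 and 17.6 FPKM in KO-labelled beige and 19.4 and 18.4 FPKM in WT beige libraries, and at 10.5 and 10.8 FPKM in KO-labelled white and 19.3 and 19.7 FPKM in WT white libraries, with 0.68, and Ppp2r5a, a regulatory subunit of protein phosphatase 2A, had 0.75. The adjusted p of the last 2 was 0.104.

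Across gene lists the interaction was small beside its error for most single genes, and the lists are described by counts and medians only. The median of all entries was 0.01. Among lists with at least 6 genes tested, medians above 0.2 were those of PPARγ targets, the unfolded protein and integrated stress responses, thermogenic genes, pericyte and smooth muscle markers, fatty acid oxidation, adipocyte core genes, the TCA cycle, respiratory chain subunits and MHC class I genes. Medians below −0.2 were those of hypoxia and glycolysis genes, macrophage markers, preadipocyte markers, cell cycle genes, TGF-β and Wnt pathway genes and white-selective markers. In the lists other than lipogenesis and the cell cycle, 0 members passed at an adjusted p under 0.05, while 0.108% of all entries passed.

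**Figure D3:**
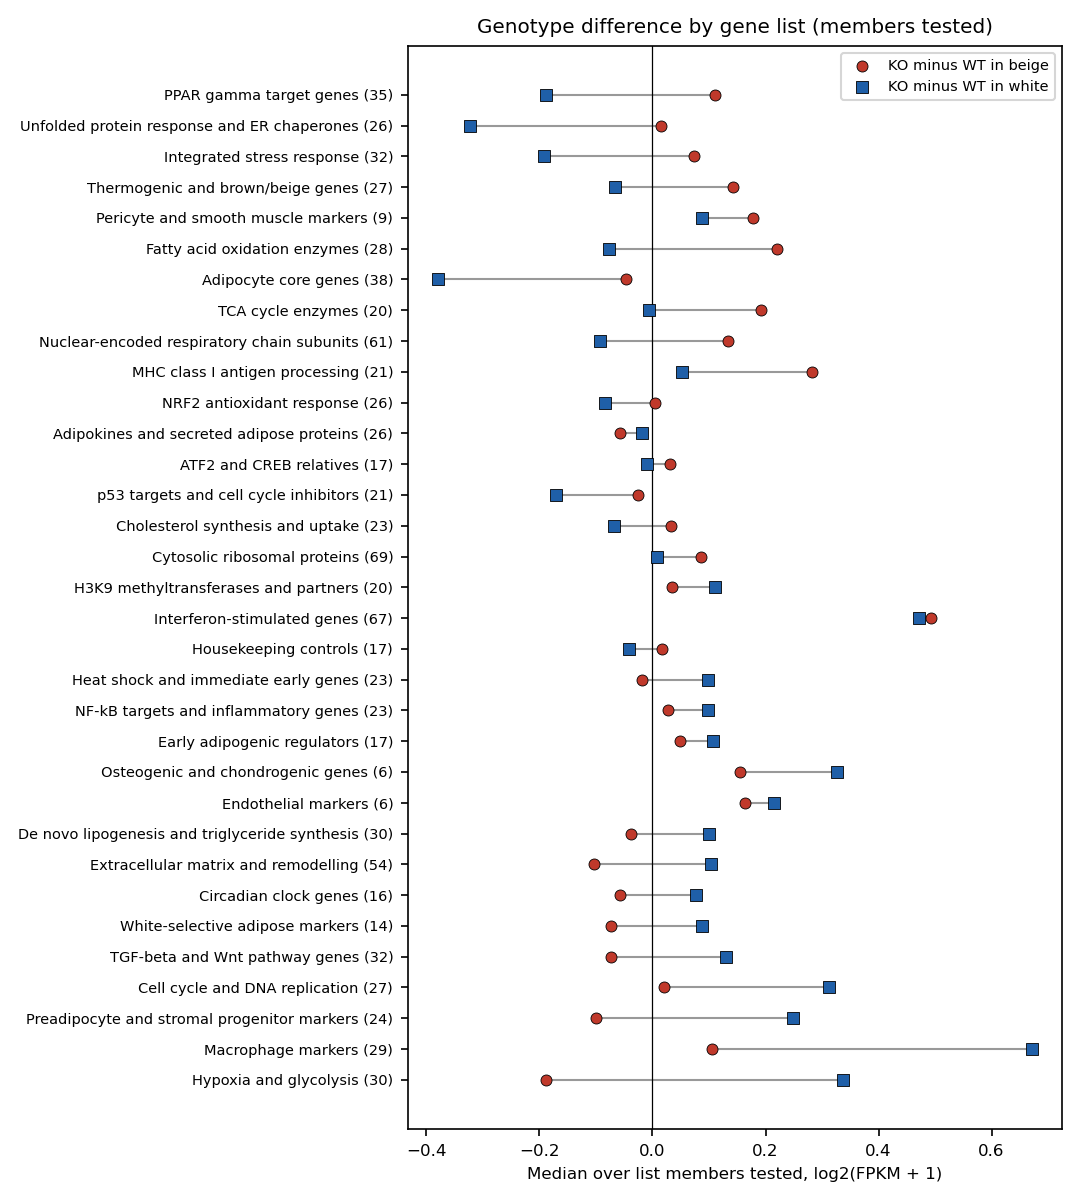
Median difference between KO-labelled and WT over the tested members of each gene list with at least 6 of them, in log2(FPKM + 1), for beige cultures (red circles) and white cultures (blue squares), with lists ordered from top to bottom by falling median interaction. The number of members tested is in brackets. Interferon-stimulated genes have nearly the same median in both kinds of culture (0.49 and 0.47), while the unfolded protein response list is at 0.02 in beige and −0.32 in white.

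The unfolded protein response raises chaperones of the endoplasmic reticulum when secretory load exceeds folding capacity. All 26 of its genes tested had an interaction above 0, against 51.6% of all entries, with a median of 0.34 and a range of 0.02 to 0.98. At an unadjusted p under 0.05, 10 were higher and 0 lower, against 8.2% and 9.12% of all entries, and 0 passed the adjusted threshold. Hspa5, the chaperone BiP, was at 648 and 728 FPKM in KO-labelled beige and 706 and 705 FPKM in WT beige libraries, and at 136 and 132 FPKM in KO-labelled white and 225 and 329.8 FPKM in WT white libraries. The beige libraries of both genotypes lay close together, and the KO-labelled white libraries were below both WT white libraries, which also lay apart from each other. The interaction was 0.98 (SE 0.24, adjusted p = 0.129). Manf, a secreted factor of the same response, was at 55.3 and 70.7 FPKM in KO-labelled beige and 62.5 and 63.6 FPKM in WT beige libraries, and at 16.8 and 17.7 FPKM in KO-labelled white and 28.8 and 35.0 FPKM in WT white libraries, with an interaction of 0.83 (adjusted p = 0.119). Sdf2l1, a partner of BiP, had 0.81 (adjusted p = 0.133). The median difference was 0.02 in beige and −0.32 in white cultures, so the positive sign of the list came with lower values in KO-labelled white libraries, where 4 of the 26 passed as lower, against 0.922% of all entries. Without WT white replicate 1 the median was 0.49, and without ATF7KO-beige replicate 2 it was 0.22.

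The start region of Hspa5 and 4 further sites are shown because 9 of the 20 genes of this list with a promoter window held the endoplasmic reticulum stress element, searched on both strands as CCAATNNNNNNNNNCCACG, against 0.119% of all windows and 0.148% of the windows of genes tested. The Hspa5 window is chr2:34771840-34772139, plus strand, GRCm38.p6 (RefSeq), written 5′ to 3′ with the element in capitals, 65 to 47 bases before the start. The other sites are written on the strand of the match, with the 2 fixed blocks in capitals.
Hspa5: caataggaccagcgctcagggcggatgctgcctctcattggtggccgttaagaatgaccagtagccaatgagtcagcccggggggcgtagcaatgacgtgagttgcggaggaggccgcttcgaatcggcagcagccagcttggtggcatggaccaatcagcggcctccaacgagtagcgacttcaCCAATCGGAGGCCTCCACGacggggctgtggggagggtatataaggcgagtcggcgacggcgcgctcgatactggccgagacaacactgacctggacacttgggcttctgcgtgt
Hsp90b1: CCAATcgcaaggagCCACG
Calr: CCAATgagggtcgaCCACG
Dnajc3: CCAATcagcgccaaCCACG
Pdia6: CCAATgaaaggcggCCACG
These genes encode endoplasmic reticulum chaperones or folding enzymes (GRP94, calreticulin, P58IPK and a disulphide isomerase). The count covers members of the list whatever their interaction, so it describes the list and not the expression values. The match says nothing on which factor was bound in these cultures.

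The integrated stress response, the arm of stress signalling that acts through ATF4 and raises amino acid metabolism, had a median interaction of 0.34 over 32 genes. Of these, 27 lay above 0 and 0 passed. Counted at an unadjusted p under 0.05, 8 were higher (25.0%) and 1 lower (3.12%), against 8.2% and 9.12% of all entries. Cth, which makes cysteine, was at 13.0 and 16.0 FPKM in KO-labelled beige and 12.7 and 14.1 FPKM in WT beige libraries, and at 3.09 and 2.98 FPKM in KO-labelled white and 5.34 and 8.53 FPKM in WT white libraries, with an interaction of 1.05 (adjusted p = 0.12). Its 2 WT white libraries differed widely, and both were above the KO-labelled white ones. Mthfd2, a mitochondrial folate enzyme, had 0.55 and Wars, the tryptophanyl-tRNA synthetase, 0.63. The median was 0.17 without WT white replicate 2 and 0.43 without WT white replicate 1.

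PPARγ target genes, through which rosiglitazone acts, had a median interaction of 0.38 over 35 genes, the highest of the lists, with 31 above 0. At an unadjusted p under 0.05, 16 were higher (45.7%) and 1 lower (2.86%), against 8.2% and 9.12% of all entries, and 0 passed. The median difference was 0.11 in beige and −0.19 in white cultures. Pck1, the enzyme that feeds glycerol synthesis in fat cells, was at 28.6 and 43.7 FPKM in KO-labelled beige and 33.2 and 32.2 FPKM in WT beige libraries, and at 1.70 and 1.99 FPKM in KO-labelled white and 4.30 and 5.33 FPKM in WT white libraries. Its genotypes overlapped in beige cultures and not in white, and the interaction was 1.14 (SE 0.24, adjusted p = 0.112). Cyp4b1, a cytochrome P450 enzyme, was at 37.8 and 76.7 FPKM in KO-labelled beige and 10.7 and 14.2 FPKM in WT beige libraries, and at 0.92 and 1.18 FPKM in KO-labelled white and 0.45 and 0.57 FPKM in WT white libraries. KO-labelled libraries were above WT in both kinds of culture, with a wide gap between the 2 KO-labelled beige libraries, and the interaction was 1.60 (SE 0.36, adjusted p = 0.116). Fitm2, a protein of lipid droplet formation, had 0.78 (adjusted p = 0.121). Pparg itself was at 50.5 and 49.1 FPKM in KO-labelled beige and 47.0 and 45.1 FPKM in WT beige libraries, and at 38.0 and 40.1 FPKM in KO-labelled white and 45.8 and 45.0 FPKM in WT white libraries, with an interaction of 0.32 (SE 0.14, adjusted p = 0.265, 95% interval 0.02 to 0.63).

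Genes of the adipocyte itself had a median of the same sign. Of 38 adipocyte core genes tested, 30 lay above 0, 0 passed, and the median interaction was 0.24. Counted at an unadjusted p under 0.05, 10 were higher (26.3%) and 2 lower (5.26%), against 8.2% and 9.12% of all entries. Their median difference was −0.05 in beige and −0.38 in white cultures. Cd36, the fatty acid transporter, was at 499 and 597 FPKM in KO-labelled beige and 530.0 and 529.5 FPKM in WT beige libraries, and at 114 and 112 FPKM in KO-labelled white and 177 and 185 FPKM in WT white libraries, with an interaction of 0.72 (adjusted p = 0.129). Its white groups did not overlap, with the KO-labelled libraries lower. Fabp4, the main fatty acid binding protein of fat, was at 8672 and 9585 FPKM in KO-labelled beige and 9181 and 8602 in WT beige, and at 1940.2 and 1987 in KO-labelled white and 2497 and 3055 in WT white libraries (interaction 0.53, adjusted p = 0.316). Cidec, which enlarges lipid droplets, had 0.52, Plin1, their coat protein, 0.18, and Cebpa, a transcription factor of fat cell formation, 0.10. Adipoq had an interaction of 0.09 (SE 0.17, adjusted p = 0.823), small beside the median of this list.

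Thermogenic and brown fat genes had a median interaction of 0.31 over the 27 of 44 listed genes that could be tested, with 21 above 0 and 0 passing. Among the 27, 8 were higher (29.6%) and 2 lower (7.41%) at an unadjusted p under 0.05, against 8.2% and 9.12% of all entries. Fabp3, a fatty acid binding protein of brown fat and muscle, was at 24.5 and 40.3 FPKM in KO-labelled beige and 16.5 and 18.0 FPKM in WT beige libraries, and at 0.29 and 0.27 FPKM in KO-labelled white and 0.42 and 0.86 FPKM in WT white libraries, with an interaction of 1.17 (adjusted p = 0.129). It was near 0 in all white libraries. Ppargc1a, the coactivator of mitochondrial genes, was at 7.60 and 9.54 FPKM in KO-labelled beige and 6.07 and 6.37 FPKM in WT beige libraries, and at 1.15 and 1.51 FPKM in KO-labelled white and 1.17 and 1.38 FPKM in WT white libraries, with an interaction of 0.37 (SE 0.18, adjusted p = 0.324), and Prdm16, a regulator of brown fat identity, had 0.12 (adjusted p = 0.704). Ckb, a creatine kinase, had the opposite sign, at 5.98 and 6.01 FPKM in KO-labelled beige and 7.29 and 5.03 FPKM in WT beige libraries, and at 21.3 and 23.8 FPKM in KO-labelled white and 13.0 and 13.0 FPKM in WT white libraries (interaction −0.77, adjusted p = 0.133). Ucp1 and Cidea, the best known genes of this group, were not tested, since both were listed at 0 in at least 1 white library. Ucp1, the uncoupling protein of brown fat, was at 51.6 and 24.5 FPKM in KO-labelled beige and 19.1 and 17.2 in WT beige libraries and listed at 0 in all 4 white ones.

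Enzymes of mitochondrial oxidation had small interactions, mostly above 0. Fatty acid oxidation had 27 of 28 genes above 0 (median 0.25, 8 higher and 0 lower at an unadjusted p under 0.05), nuclear-encoded respiratory chain subunits 56 of 61 (median 0.22, 4 higher and 0 lower) and the TCA cycle 18 of 20 (median 0.22, 4 higher and 0 lower), and 0 passed in each. The background of 8.2% of all entries higher at that threshold lies above the share of the respiratory chain list (6.56%) and below those of fatty acid oxidation (28.6%) and the TCA cycle (20.0%). Acadm, the medium-chain acyl-CoA dehydrogenase, was at 212 and 259 FPKM in KO-labelled beige and 178 and 187 FPKM in WT beige libraries, and at 37.3 and 42.3 FPKM in KO-labelled white and 43.7 and 57.4 FPKM in WT white libraries. KO-labelled libraries were above WT in beige and below WT in white cultures, without overlap, and the interaction was 0.69 (SE 0.21, adjusted p = 0.17). Etfa, which carries electrons out of fatty acid oxidation, had 0.63, Ndufs4, of complex I, 0.62, Sdhb, of complex II, 0.67, and Dld and Sucla2, of the TCA cycle and its entry, 0.47 and 0.61. The median of the respiratory list was 0.12 without WT white replicate 2 and 0.34 without WT white replicate 1, and that of fatty acid oxidation was 0.14 without ATF7KO-beige replicate 2 and 0.42 without ATF7KO-beige replicate 1.

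Hypoxia and glycolysis genes had the most negative median among lists with more than 1 gene tested, −0.62 over 30 genes, with 1 above 0 and 0 passing. Among the 30, 17 were lower (56.7%) and 0 higher at an unadjusted p under 0.05, against 9.12% and 8.2% of all entries. The median difference was −0.19 in beige and 0.34 in white cultures. Slc16a3, the lactate exporter MCT4, was at 18.7 and 11.2 FPKM in KO-labelled beige and 20.0 and 20.7 FPKM in WT beige libraries, and at 5.50 and 8.96 FPKM in KO-labelled white and 2.65 and 1.20 FPKM in WT white libraries, with an interaction of −1.97 (SE 0.39, adjusted p = 0.104). Egln3, an oxygen sensor that hypoxia induces, was at 74.3 and 37.1 FPKM in KO-labelled beige and 85.5 and 69.0 FPKM in WT beige libraries, and at 4.80 and 9.48 FPKM in KO-labelled white and 2.31 and 1.84 FPKM in WT white libraries, with an interaction of −1.88 (SE 0.44, adjusted p = 0.121). Slc2a1, the glucose transporter GLUT1, was at 106 and 43.8 FPKM in KO-labelled beige and 125 and 89.2 FPKM in WT beige libraries, and at 11.1 and 17.7 FPKM in KO-labelled white and 8.12 and 6.81 FPKM in WT white libraries, with an interaction of −1.46 (SE 0.49, adjusted p = 0.189). In these 3 genes ATF7KO-beige replicate 2 was the lowest beige library and ATF7KO-white replicate 2 the highest white one, so the replicates of a group lay apart. Without ATF7KO-beige replicate 2 the median was −0.38, and without ATF7KO-white replicate 1 it was −0.77. The part of the state of single cultures in this list was not tested. Hk1, a hexokinase with closer replicates, had −0.66 (adjusted p = 0.152).

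**Figure D4:**
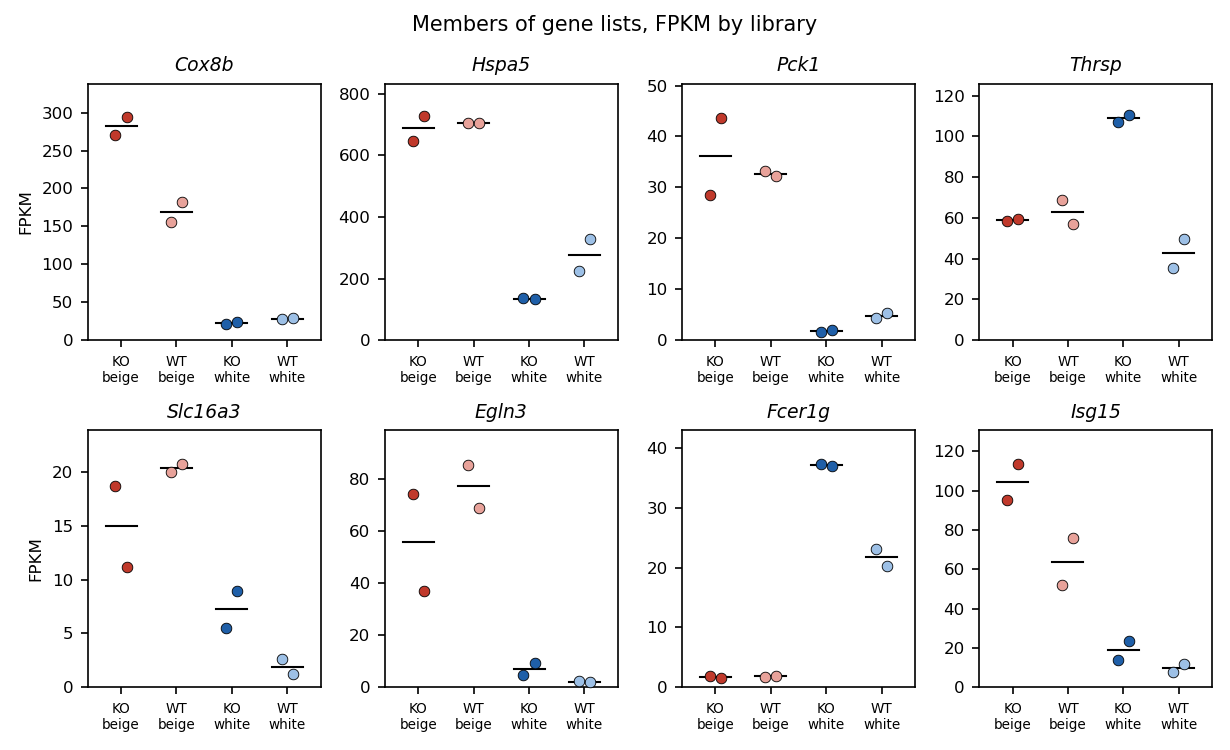
FPKM of 8 members of gene lists in each of the 8 libraries, with a linear vertical axis from 0 in FPKM and groups from left to right as ATF7KO-beige, WT-beige, ATF7KO-white and WT-white, where KO means labelled ATF7KO. Points are libraries and black lines are group means. None of the 8 passed the test for the interaction, and in Slc16a3 and Egln3 the 2 libraries of ATF7KO-beige lie well apart.

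Stromal lists had negative medians, and 0 of their members passed. Preadipocyte and progenitor markers had a median interaction of −0.32 over 24 genes (4 above 0, 8 lower and 0 higher at an unadjusted p under 0.05), TGF-β and Wnt pathway genes −0.26 over 32 (6 above 0, 8 lower and 0 higher) and extracellular matrix genes −0.17 over 54 (17 above 0, 12 lower and 1 higher). The shares that were lower were 33.3%, 25.0% and 22.2%, against 9.12% of all entries. Those that were higher were 0.0%, 0.0% and 1.85%, against 8.2%. Cd34, a surface protein of progenitors, was at 0.69 and 0.53 FPKM in KO-labelled beige and 1.19 and 0.64 FPKM in WT beige libraries, and at 30.5 and 30.7 FPKM in KO-labelled white and 17.7 and 21.0 FPKM in WT white libraries, with an interaction of −0.88 (adjusted p = 0.119). It was near the bottom of the scale in beige cultures and highest in KO-labelled white ones. Pi16, a marker of early progenitors, had −0.76, Sfrp1, a secreted Wnt inhibitor, −0.94, and Col14a1, a fibril-associated collagen, −0.72 (adjusted p = 0.116, 0.114 and 0.112). Pdgfra, the receptor that defines progenitors, was at 6.27 and 8.54 FPKM in KO-labelled beige and 8.21 and 7.94 FPKM in WT beige libraries, and at 72.7 and 78.1 FPKM in KO-labelled white and 60.6 and 66.9 FPKM in WT white libraries, with an interaction of −0.36 (adjusted p = 0.345).

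Interferon-stimulated genes, the response to viral infection and interferon, had nearly the same median difference between KO-labelled and WT libraries in both kinds of culture, 0.49 in beige and 0.47 in white. Over 67 of these genes the median interaction was −0.02, 30 lay above 0, and 2 were higher and 5 lower at an unadjusted p under 0.05. These shares, 2.99% higher and 7.46% lower, lay below those of all entries, 8.2% and 9.12%. Isg15, a ubiquitin-like protein induced by interferon, was at 95.1 and 114 FPKM in KO-labelled beige and 51.8 and 76.0 FPKM in WT beige libraries, and at 14.0 and 23.6 FPKM in KO-labelled white and 7.92 and 11.7 FPKM in WT white libraries, with an interaction of −0.13 (SE 0.36, 95% interval −0.93 to 0.66). The interval is wide enough to hold a sizeable difference on either side. Slfn2 and Ifit3 were the list's members with the lowest p and the third lowest, with −0.84 and −0.77 (adjusted p = 0.129 and 0.213). The sign of the median depended on single libraries, from −0.20 without WT-beige replicate 1 to 0.14 without ATF7KO-white replicate 2. Lcn2, the acute phase protein lipocalin 2, was likewise above WT in both kinds of culture, at 7.37 and 11.3 FPKM in KO-labelled beige and 1.71 and 3.93 FPKM in WT beige libraries, and at 21.2 and 20.7 FPKM in KO-labelled white and 3.31 and 4.06 FPKM in WT white libraries, with an interaction of −0.76 (SE 0.35, adjusted p = 0.302). MHC class I genes had a median of 0.21 over 21 genes, with 19 above 0. Among the 21, 3 were higher (14.3%) and 0 lower at an unadjusted p under 0.05, against 8.2% and 9.12% of all entries.

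The remaining lists had 0 members that passed. Their medians were −0.23 for white-selective markers (14 genes), −0.18 for clock genes (16), 0.28 for pericyte and smooth muscle markers (9), 0.14 for NRF2 targets (26), 0.11 for adipokines (26), 0.09 for ATF2 and CREB relatives (17) and 0.08 for p53 targets (21). They were 0.06 for cholesterol synthesis (23), −0.06 for NF-κB targets (23), for heat shock and immediate early genes (23) and for early adipogenic regulators (17), −0.03 for housekeeping controls (17) and −0.01 for H3K9 methyltransferases and partners (20). Ribosomal protein genes had a median of 0.06 (69 genes), which turned to −0.03 after quantile normalization. Few genes of other cell types could be tested, with medians of −0.14 for endothelium (6), −0.12 for bone and cartilage genes (6), 0.12 for Schwann cell and muscle genes (5), −0.54 for epithelium (2) and −0.77 for lymphoid and mast cells, where Ptprc, the leukocyte antigen CD45, was the 1 gene tested. Acta2, smooth muscle actin, had an interaction of 0.93 (adjusted p = 0.129). Atf2, a close relative of Atf7, had 0.47 (adjusted p = 0.215). Angptl4, a lipase inhibitor and PPAR target, had 0.72, Gsta3, a glutathione transferase, 0.77, and Kdm3a, a demethylase of H3K9 that hypoxia induces, −0.71 (adjusted p = 0.13, 0.104 and 0.154). The housekeeping genes Actb and Tbp had 0.19 and −0.03, and the sign for Tbp turned after quantile normalization.

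The interaction can also be read as the response to rosiglitazone, beige minus white, in KO-labelled cultures minus that in WT cultures. The response passed in 6820 entries in KO-labelled cultures (61.6%) and in 6069 in WT cultures (54.9%). Of these calls 43.9% in KO-labelled and 40.3% in WT cultures were higher in beige. After quantile normalization 6930 and 5976 entries passed, of which 53.3% and 51.3% were higher in beige. Across the 11063 entries the 2 responses had a Pearson's r of 0.942, and the response was larger in size in KO-labelled cultures for 64.8% of entries. The slope of the KO-labelled on the WT response was 1.09 and that of the WT on the KO-labelled response 0.81. Entries are not independent replicates, and these values are descriptions.

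Among the called genes this reading separates kinds of pattern. Lars2 was lower in beige than in white cultures in KO-labelled cells (−1.31, adjusted p = 8.7e-06) and higher in WT cells (1.35, adjusted p = 1.04e-05). Txnip was slightly lower in beige in KO-labelled cells (−0.26, adjusted p = 0.0455) and higher in WT cells (1.09, adjusted p = 9.03e-06). Cenpa was lower in beige in KO-labelled cells (−0.95, adjusted p = 2.2e-05), against 0.09 in WT cells (adjusted p = 0.483). In the other 9 the response had the same sign in both, such as −1.98 and −0.70 for Acly in KO-labelled and WT cells, −3.26 and −2.15 for Ccnd1, and −3.81 and −2.77 for Scara5. Cox8b was higher in beige by 3.58 in KO-labelled and by 2.53 in WT cells, and Hspa5 by 2.35 and 1.37.

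The 1916 entries at an unadjusted p under 0.05 were selected for a large gap between the 2 genotype differences, which itself favours differences on opposite sides, so their tally describes that selection and supports nothing further. In 838 the KO-labelled mean was above WT in beige and below it in white cultures, and in 829 it was below WT in beige and above it in white. In 204 it was on the same side in both and larger in white, and in 45 on the same side and larger in beige. The difference was larger in size in white cultures in 1329 of the 1916. Over all 11063 entries, with no selection, the differences were on opposite sides in 52.9%. The median size of the difference was 0.11 in beige and 0.14 in white cultures, and the 2 differences had a Pearson's r of −0.03 across entries.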

How the data were processed

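RNA sequencing values of 8 libraries of primary mouse adipocytes, in 4 groups of 2 taken from the sample labels, were used, and the other 4 libraries of the series (C3H10T1/2 cells) entered 1 alternative fit. Per the labels' protocols, 36 bases were read from both ends of fragments of directional libraries. FPKM values per gene were computed by the authors and deposited as such, per the file headers, with loci on mm10 (GRCm38) per the submitters' processing notes. The names of the aligner, quantifier and annotation were not given in the sources used here. With no counts used here, depth is unknown, the number of libraries limits the precision, and an exact 0 may be a failed estimate. Deposited starts were counted from 0 and are printed with 1 added, since 60.7% of 23609 genes matched by symbol had a RefSeq start greater by 1 (3.13% an equal one).

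Of 24888 entries, 11294 reached 1 FPKM in at least 2 of the 8 libraries, and 231 of these were left out for a 0 in at least 1 library. The other 11063 were fitted with limma 3.58.1 (eBayes with trend, R 4.3.3) on log2(FPKM + 1), with 1 coefficient per group and 4 residual degrees of freedom. Tests were two-sided, with Benjamini-Hochberg adjustment over all entries and a threshold of 0.05. The script was tested on simulated data.

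Named genes are the called genes whose log2 values average 1 or more, filled to 10 a side by the lowest p, the 3 genes of lowest p in a list at most, fixed genes, and genes said to be singled out. Other genes were named as defining markers or as known members of a list after their values were seen. The 36 gene lists, with a symbol at several loci taken at the highest mean, were described by counts and medians. The lists and the genes were chosen with earlier results of these data known. Promoter windows came from RefSeq, matched by symbol for 8425 of 11060 symbols tested.

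Alternatives were log2(FPKM + 0.1), zeros kept, no filter on low values, quantile normalization, median centring, small RNA genes left out, limma without trend, all 12 libraries in 1 fit, the replicate number as a block, and each library left out in turn.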

Additional observations from a re-analysis of the deposited data

Results flagged for a closer look

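In 12 entries the difference between KO-labelled and WT libraries was not the same in beige and white cultures by limma's test of the interaction itself, at an adjusted p under 0.05. The interaction was −2.66 for Lars2, −1.35 for Txnip, −1.28 for Acly, −1.31 for Hist1h3h, −1.15 for Rcan2 and −1.04 for Cenpa. It was −1.10 for Ccnd1, −0.95 for Adam8, −1.43 for Hist1h3i, −1.25 for Coro1a, −1.04 for Scara5 and −1.10 for Slc40a1. In each, both KO-labelled white libraries were above both WT white libraries, which describes the called entries only. The share of all entries with that order is not given here.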

How the results depend on the processing

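The number of entries that passed for the interaction moved widely, while the sign of the 12 called genes stayed negative in all 17 alternative fits. Against 12 calls, there were 3 with log2(FPKM + 0.1), 33 with zeros kept (12 higher and 21 lower), 24 with no filter on low values (8 higher and 16 lower, 2 of the 12 among them), 19 after quantile normalization (3 higher and 16 lower), 2 after median centring, 2 without small RNA genes and 127 with all 12 libraries in 1 fit (47 higher and 80 lower). Limma without trend gave 14 (1 higher). With 1 library left out the count ran from 1 to 137, the highest without ATF7KO-beige replicate 1 (63 higher and 74 lower). The difference in beige cultures gave 10 calls, 17 with zeros kept and 32 with all 12 libraries, and 1 to 26 with 1 library left out. The difference in white cultures gave 308 calls, 107 with log2(FPKM + 0.1), 122 with no filter, 506 after quantile normalization and 736 with all 12 libraries, and 3 to 521 with 1 library left out. The responses to rosiglitazone kept their counts within 1.5 times throughout. The causes of these shifts were not tested. Replicate numbers were checked for pairing. Deviations of the libraries numbered 1 correlated between groups at −0.14 to 0.23, the highest between ATF7KO-beige and WT-beige. These values do not settle whether the numbers pair the libraries. With the replicate block there were 20 calls for the interaction (2 higher), 23 in beige and 442 in white cultures. Of 105 genes recomputed under each alternative, the named ones included, signs turned in 6. Tbp turned to 0.0052, Rn45s to 0.070 and Scd1 to −0.070 after quantile normalization, and with 1 library left out values ran from −0.19 to 0.13 for Tbp, from −0.070 to 0.25 for Atf7, from −0.033 to 0.22 for Cebpa, from −0.032 to 0.22 for Scd1 and from −0.49 to 0.22 for Isg15. Signs also turned in genes outside these 105. Comp went from −0.36 to 0.10 with log2(FPKM + 0.1). With 1 library left out, the interferon gene Irf7 ran from −0.50 to 0.23 and Ehmt1 from −0.14 to 0.16. Of 612 list medians under alternatives, 565 moved by less than 1 SD between replicates. With 2 libraries a group and unknown depth, differences of low entries are the least certain.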

Other observations

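The 231 entries with a 0 in at least 1 library had no interaction in the main comparison, because a listed 0 may be a failed estimate. The genes named here were chosen after their values were seen. Of these entries, 9 were listed at 0 in both white groups and at 1 FPKM or more in both beige groups, and 23 the other way round. Znhit1, part of a complex that remodels chromatin, was listed at 0 in both KO-labelled white libraries and lay at 10.2 to 12.9 FPKM in the other 6. Fdx1l, a mitochondrial ferredoxin, was listed at 0 in the same libraries, against 5.31 to 12.6 FPKM elsewhere. Slc7a10, a transporter of small neutral amino acids, was also listed at 0 there, against 6.03 to 9.15 FPKM elsewhere. Entries that reached 1 FPKM in KO-labelled white libraries and were listed at 0 in the other 6 included Cd72 (3.55 and 5.71 FPKM), a B cell and macrophage receptor, and Cdc20 (1.80 and 2.39 FPKM), an activator of the anaphase-promoting complex. Other groups held such patterns too. Gins2 was at 3.17 and 2.79 FPKM in WT white libraries and listed at 0 in the other 6. Wdr77 and Rnf146 were listed at 0 in both WT beige libraries, against 4.94 to 7.35 and 7.73 to 16.5 FPKM elsewhere. With zeros kept, 33 entries passed for the interaction, 20 of them with a library at 0.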
